A study of Homo sapiens with 6 samples.

Results

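The aminoacyl-tRNA synthetases are the enzymes that join each amino acid to its transfer RNAs. They were followed in SNU-449 cells, a line from a human hepatocellular carcinoma, on 6 Affymetrix arrays. Members were a list of 35 gene symbols, 19 of cytosolic and 16 of mitochondrial enzymes, each represented by the brightest probe set that names that gene alone. Of these, 32 were measured, 17 cytosolic and 15 mitochondrial, out of 19775 genes on the array. MARS1, QARS1 and TARS2 were not analysed here, because every probe set that names them also names another gene. The 3 empty vector arrays held RNA of SNU-449 cells with the genotype Ctrl, and the 3 USP48-labelled arrays RNA of SNU-449 cells with the genotype USP48 OE, overexpression of a ubiquitin-specific protease. The titles call the cells transfected with vector or USP48, while the protocol, given alike for every sample, describes lentivirus carrying USP48 and puromycin selection of a stable strain. How the vector cells were made and selected, and how many clones a strain holds, is not stated there. Per the labels both groups share cell line and medium, no untreated cells were compared, and whether replicates came from separate cultures is not stated, so p-values reflect only how these samples vary, which could be technical variation. RNA was taken from all cells of a sample, so a change in every cell and a change in some cells cannot be told apart. Values are log2 signals, and a difference is always the USP48-labelled mean minus the empty vector mean.

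Cytosolic synthetases, whose symbols mostly end in 1, charge the transfer RNAs used by cytoplasmic ribosomes. Several of them (EPRS1, IARS1, LARS1, MARS1, QARS1, RARS1 and KARS1 among the members) sit with scaffold proteins in the multi-tRNA synthetase complex, and the others work outside it. Mitochondrial enzymes, whose symbols end in 2, are encoded in the nucleus, made in the cytoplasm and imported, and they charge the transfer RNAs of the mitochondrial genome. KARS1 and GARS1 each supply both compartments. The enzymes fall into class I and class II by the fold of the catalytic domain, and EPRS1 joins an enzyme of each class in a single chain. Many cytosolic synthetase genes are known targets of ATF4, the transcription factor of the integrated stress response, and WARS1 is known as a gene induced by interferon gamma.

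USP48 was not called higher by any of its probe sets in the arrays that carry its name, so the groups are named by label throughout. Its brightest probe set had a log2 difference of −0.13 (limma adjusted p = 0.31 over all genes), and a dimmer probe set fell from 7.88 ± 0.05 to 7.06 ± 0.12 (SD, n = 3 each; limma adjusted p = 0.00013 over all probe sets). Whether the probes match the transferred sequence was not tested. The cells showed high KRT18, a simple epithelial keratin, at 11.79 ± 0.10 in the empty vector group and 11.80 ± 0.16 in the other, and ALB, the albumin of hepatocytes, at 2.07 ± 0.18 and 2.14 ± 0.07, below the median of every array (3.75 to 3.79). The other hepatocyte markers differed in level. TTR was at 5.11 and 5.31, above those medians, and AFP at 3.75 and 3.96. APOA1 (3.06 and 3.05) and SERPINA1 (3.41 and 3.64) were below them. No hepatocyte marker of 5 measured and no leukocyte marker of 3 passed the test. Beside 14.1% of all genes, 4 of 6 epithelial and mesenchymal markers fell (median −0.40). These were CDH2, or N-cadherin (−0.65), the intermediate filament gene VIM (−0.42, from 11.57 ± 0.06), EPCAM (−0.42) and CDH1, or E-cadherin (−0.38), which was below the median of every array. VIM and CDH1 were not called as the average of their probe sets (adjusted p = 0.055 and 0.064), and CDH1 also lost its call on leaving out empty vector replicate 1 or 2 or USP48 replicate 1 (adjusted p up to 0.076). The keratin gene KRT8 was at −0.31 (adjusted p = 0.12). The part of this difference between the groups in the synthetase values was not tested. The 18 hybridization controls, labelled RNAs added before hybridization, were at 9.79 ± 0.04 in the empty vector group and 10.09 ± 0.10 in the USP48-labelled group, and scaling the arrays on them, called control scaling here, lowers every log2 difference by 0.29. The median difference of all genes was 0.05 as deposited and −0.24 with that scaling. USP48 replicate 3 stood apart in the GAPDH 5′ minus 3′ signal, a measure of RNA integrity, at −1.31, while the other arrays were between −0.51 and −0.32.

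The synthetase genes did not move in a single direction. Of 32 measured, 7 rose and 8 fell, with 17 that did not pass (limma, adjusted p under 0.05). That is 46.9% called against 29.8% of all genes (15.7% higher and 14.1% lower). Ranked by mean signal, the median synthetase gene lay at percentile 87.2 of all genes. The share called among genes of similar signal was not computed, so this excess cannot be called particular to synthetases. The same limit holds for the other comparisons of synthetases with all genes. Among cytosolic enzymes WARS1, CARS1 and TARS1 rose and IARS1, FARSB, VARS1 and LARS1 fell. Among mitochondrial enzymes HARS2, PARS2, YARS2 and LARS2 rose and CARS2, RARS2, IARS2 and NARS2 fell. All 4 of the mitochondrial increases, and that of TARS1, were lost with control scaling, where LARS2 and YARS2 were slightly below 0, so those calls rest on the scaling as deposited. With control scaling 2 cytosolic genes were called higher and 7 lower, and 0 and 6 mitochondrial genes, beside 4.84% and 37.9% of all genes. With a gene taken as the average of its probe sets those counts were 4 and 3, and 4 and 2, beside 13.8% and 13.6% of all genes.

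Most changes were small. A difference of at least 2-fold was found for 1 synthetase gene, WARS1, while 3.74% of all genes passed the test with such a difference. The differences ran from −0.64 to 1.15 for cytosolic and from −0.86 to 0.45 for mitochondrial genes. Their medians were 0.10 and 0.05, beside 0.05 for all genes, and turned to −0.19 and −0.24 with control scaling. The median absolute difference was 0.27 over the 32 genes and 0.17 over all genes. The 3 arrays of each group did not overlap for 22 of the 32 genes, against 42.9% of all genes. These include all 7 genes called higher and all 8 called lower. Non-overlap rests on the same values as the calls, so it is no separate support for them. Neither the median absolute difference nor the non-overlap was compared with genes of similar signal. Within each array the median deviation of the cytosolic genes from their empty vector means was −0.02, 0.01 and −0.01 in the empty vector arrays, while the USP48-labelled arrays were at 0.09, 0.13 and 0.12. For the mitochondrial genes the corresponding deviations were 0.06, 0.02 and −0.07, then 0.13, 0.09 and −0.06, so those groups of arrays overlapped. Over all genes the empty vector arrays were at 0.0002, 0.0079 and −0.0075. The USP48-labelled arrays, at 0.047, 0.057 and 0.028, also lay wholly above them, so the separation was not particular to the cytosolic genes.

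**Figure D1:**
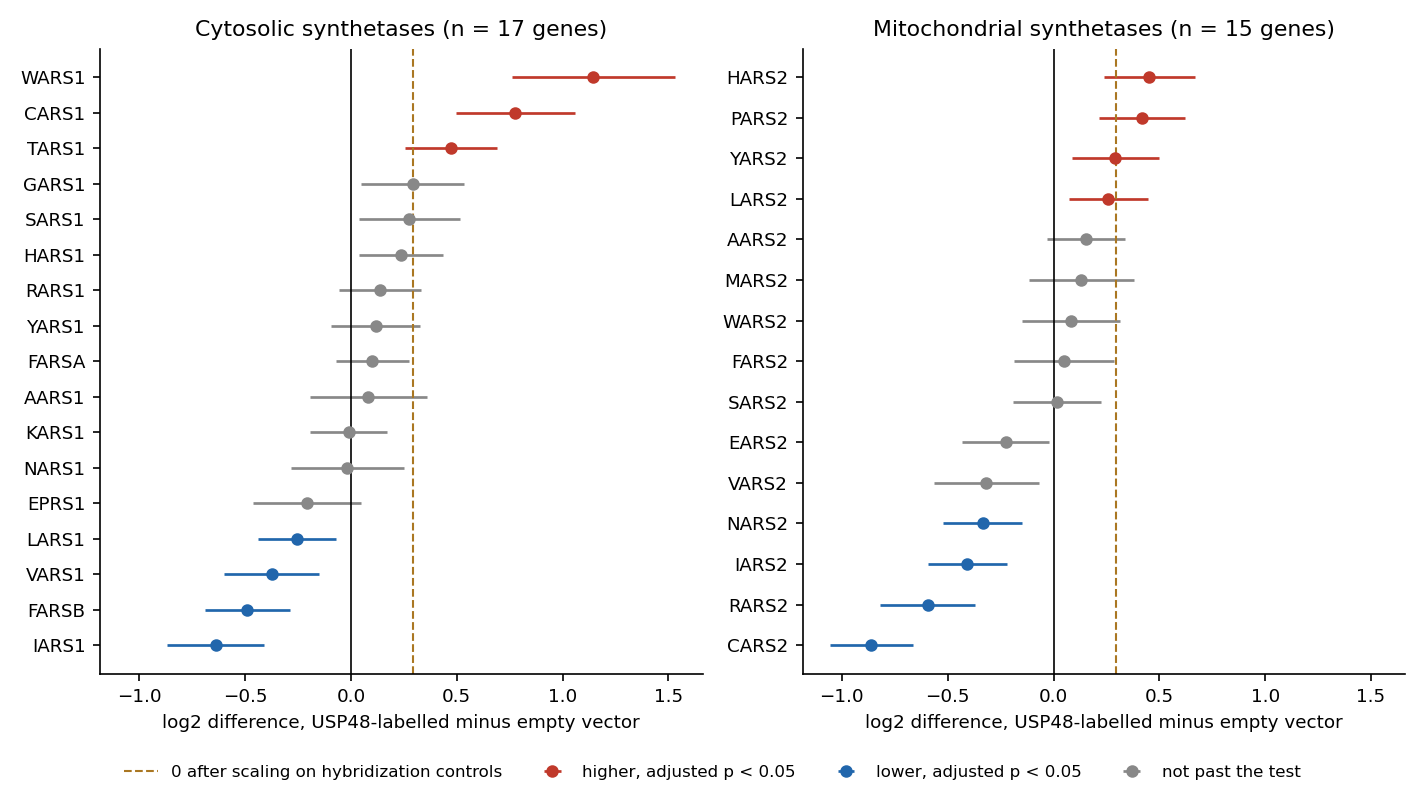
Log2 difference (USP48-labelled minus empty vector) of each measured cytosolic and mitochondrial synthetase gene, with the 95% interval of the limma fit, 3 arrays per group; red and blue mark genes higher or lower at an adjusted p under 0.05, and the dashed line is where 0 would lie with control scaling. Both panels hold genes on either side of 0, from CARS2 at −0.86 to WARS1 at 1.15.

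The largest change was in WARS1, which charges tryptophan transfer RNA. WARS1 stood at 8.59, 8.88 and 8.63 in the empty vector arrays and at 9.82, 10.27 and 9.46 in the USP48-labelled arrays. All USP48-labelled arrays were above all empty vector arrays, and replicate 3 was the lowest of them. The mean rose from 8.70 ± 0.16 to 9.85 ± 0.41 (SD, n = 3 each), 2.21-fold (log2 difference 1.15, standard error 0.17, limma adjusted p = 0.00061). A second WARS1 probe set rose by 1.23, with the same order of USP48-labelled arrays at 7.87, 8.35 and 7.42.

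The WARS1 promoter is shown because the gene is known for its interferon response and moved alongside interferon-induced genes. RefSeq lists 2 WARS1 starts on GRCh38.p14, and the sequence upstream of the downstream start, chr14:100375385-100375497 on the minus strand (positions −150 to −38, counted with the first transcribed base as 1 and the base before it as −1), reads 5′ to 3′ as follows, with capitals for a match to TTCNNNGAA, the spacing of STAT sites, and then a match to the core of interferon-stimulated response elements, which is GAAA, any 2 bases and GAAA.
WARS1: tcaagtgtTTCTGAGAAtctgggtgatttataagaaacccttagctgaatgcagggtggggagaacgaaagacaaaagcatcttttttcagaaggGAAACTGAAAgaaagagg
Searched on both strands in windows from 250 bases before to 50 after a start, TTCNNNGAA was present for 9.38% of 27305 genes and for 5 of the 30 synthetase genes with a listed promoter, and the interferon-stimulated response element core for 4.38% of genes and 2 synthetase genes. WARS1 was the 1 synthetase gene with both. These matches describe the sequence and are not evidence of binding.

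Interferon gamma response genes rose beside WARS1. Of 4 measured, 3 rose and none fell, beside 15.7% and 14.1% of all genes, with a median of 1.04 beside 0.05 for all genes. GBP1, an interferon-induced GTPase, went from 6.65 ± 0.16 to 9.37 ± 0.13 (log2 difference 2.71, limma adjusted p = 2.6e-07), and 2 other probe sets rose while the last was at 0.03. IRF1, a transcription factor of the interferon response, went from 6.39 ± 0.09 to 8.04 ± 0.13 (1.65, adjusted p = 1.3e-06). IDO1, which degrades tryptophan, went from 4.13 ± 0.12 to 4.56 ± 0.11 (0.43, adjusted p = 0.0063) and did not pass with control scaling (0.14, adjusted p = 0.38). CIITA was at 0.22 (adjusted p = 0.058).

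CARS1, the cytosolic enzyme for cysteine, had the next largest increase among synthetases. It stood at 10.76, 11.25 and 11.15 in the empty vector arrays and at 11.74, 11.80 and 11.95 in the USP48-labelled arrays. The groups did not overlap, and empty vector replicate 1 was the lowest array. The log2 difference was 0.78 (1.71-fold, standard error 0.13, limma adjusted p = 0.00093). The other 3 CARS1 probe sets rose by 0.72, 0.91 and 0.95, so all 4 gave the same direction, and the gene stayed above 0 and past the test with control scaling (0.48).

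TARS1, the cytosolic enzyme for threonine, stood at 10.09, 10.19 and 10.25 in the empty vector arrays and at 10.67, 10.50 and 10.79 in the USP48-labelled arrays. The lowest USP48-labelled array was above the highest empty vector array. The log2 difference was 0.47 (1.39-fold, standard error 0.10, limma adjusted p = 0.0041), and a dimmer probe set rose by 0.31. With control scaling the difference was 0.18 and no longer passed (adjusted p = 0.20).

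IARS1, the isoleucine enzyme of the multi-synthetase complex, had the largest decrease of the cytosolic enzymes. It was measured by a single probe set. Its values were 9.96, 10.01 and 9.97 in the empty vector arrays, against 9.36, 9.14 and 9.52 in the USP48-labelled arrays. The empty vector arrays lay close together and above all USP48-labelled arrays. The mean fell from 9.98 ± 0.02 to 9.34 ± 0.19 (SD, n = 3 each), 1.56-fold, a log2 difference of −0.64 (standard error 0.10, limma adjusted p = 0.00093).

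FARSB is the beta subunit of the cytosolic phenylalanine enzyme and FARSA its alpha subunit. FARSB stood at 8.57, 8.52 and 8.59 in the empty vector arrays and at 7.97, 8.02 and 8.21 in the USP48-labelled arrays. The groups did not overlap, and the gene fell by 0.49 on the log2 scale (standard error 0.09, limma adjusted p = 0.0021). Its other probe sets were dim and did not pass, at −0.35 and −0.32. FARSA was at 0.10 (95% interval −0.07 to 0.28, adjusted p = 0.37), so the interval of its difference did not reach that of FARSB (−0.69 to −0.29).

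The cytosolic enzymes for valine and leucine also fell, with less support. VARS1 stood at 8.17, 8.06 and 7.91 in the empty vector arrays and at 7.54, 7.70 and 7.78 in the USP48-labelled arrays, a log2 difference of −0.37 (limma adjusted p = 0.017). Its groups did not overlap, but its second probe set was at 0.13 (adjusted p = 0.39), and the call was lost with the mean of both probe sets (−0.12, adjusted p = 0.26) and on leaving out empty vector replicate 1 or 2 or USP48 replicate 1 (adjusted p = 0.074, 0.056 and 0.068). LARS1 stood at 8.32, 8.31 and 8.39 in the empty vector arrays and at 8.02, 8.07 and 8.17 in the USP48-labelled arrays (−0.25, limma adjusted p = 0.042). All USP48-labelled arrays were below all empty vector arrays. LARS1 did not pass over all probe sets (adjusted p = 0.064). Its call was also lost on leaving out any array except USP48 replicate 3 (adjusted p up to 0.13). A dimmer LARS1 probe set fell by 0.51 (adjusted p = 0.0013). The others were at −0.10 (adjusted p = 0.48) and −0.13 (adjusted p = 0.56). With IARS1, all 3 cytosolic enzymes for branched-chain amino acids fell, a grouping noticed after the values were seen.

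Of the other cytosolic genes, 3 had intervals above 0 without passing the adjusted test. GARS1, for glycine, was at 0.29 (95% interval 0.05 to 0.53, limma adjusted p = 0.070), SARS1, for serine, at 0.28 (0.04 to 0.51, adjusted p = 0.079) and HARS1, for histidine, at 0.24 (0.04 to 0.44, adjusted p = 0.074). The dimmer SARS1 probe set differed from the brightest one. It stood at 5.10, 5.29 and 5.41 in the empty vector arrays and at 6.55, 6.04 and 6.98 in the USP48-labelled arrays, with no overlap, and rose by 1.26 (standard error 0.19, limma adjusted p = 0.00077 over all probe sets). With the mean of both probe sets SARS1 rose by 0.77 (adjusted p = 0.00087).

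The rest of the cytosolic genes lay closer to 0. RARS1, for arginine, was at 0.14 (95% interval −0.06 to 0.33), YARS1, for tyrosine, at 0.12 (−0.09 to 0.33) and AARS1, for alanine, at 0.08 (−0.20 to 0.36). KARS1, for lysine, was at −0.01 (−0.19 to 0.17), NARS1, for asparagine, at −0.02 (−0.28 to 0.25) and the bifunctional EPRS1 at −0.21 (−0.46 to 0.05). For AARS1 the interval allows a change of up to 0.36 in the direction of CARS1, so a small increase cannot be told from none. EPRS1 was at 9.34 and 9.28 in USP48 replicates 1 and 2 and at 9.71 in replicate 3, and without replicate 3 it fell by 0.34 (adjusted p = 0.018). EPRS1, KARS1 and NARS1 were called lower with control scaling.

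Members of the multi-synthetase complex and the other cytosolic enzymes were described separately. Of the 5 measured enzymes of the complex none rose and 2 fell (IARS1 and LARS1), with a median difference of −0.21. Of the 12 other cytosolic enzymes 3 rose and 2 fell, with a median of 0.18. Over all genes 15.7% rose and 14.1% fell, with a median of 0.05. AIMP1, a scaffold protein of the complex, was at 0.29 (limma adjusted p = 0.045), but its other probe sets were at 0.01 and −0.52 and it was at −0.0011 with control scaling. The difference between these sets of enzymes was not tested.

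By class, 10 of 16 class I genes were called, 4 higher and 6 lower, and 5 of 15 class II genes, 3 higher and 2 lower. Class I holds the enzymes with the largest differences in both directions, WARS1 and CARS1 above and CARS2, IARS1 and RARS2 below. The medians were −0.07 for class I and 0.10 for class II. These shares stand beside 29.8% of all genes, and the difference between classes was not tested.

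**Figure D2:**
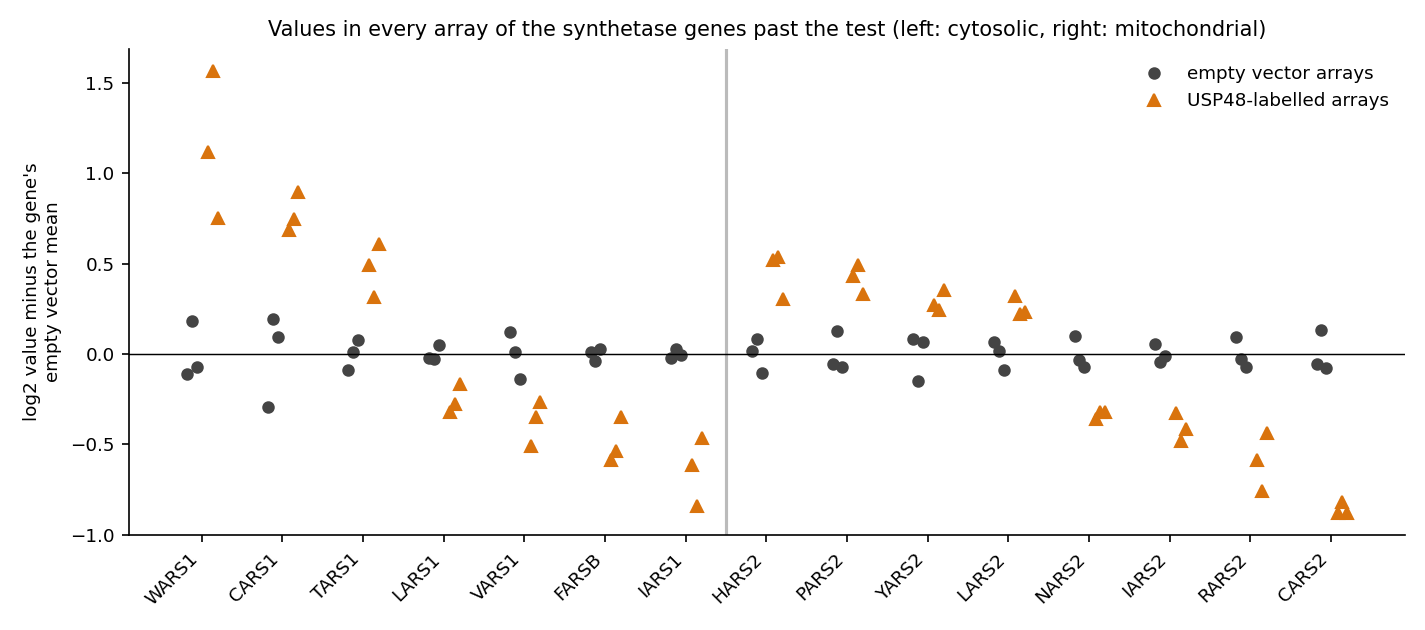
Value in each of the 6 arrays of the 15 synthetase genes past the test, as log2 value minus the gene's empty vector mean; circles are the 3 empty vector arrays, triangles the 3 USP48-labelled arrays, and the grey line divides cytosolic from mitochondrial enzymes. The triangles lie wholly above or wholly below the circles for each gene, and those of WARS1 are spread most.

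CARS2, the mitochondrial enzyme for cysteine, had the largest decrease of all synthetase genes. It stood at 7.52, 7.70 and 7.49 in the empty vector arrays and at 6.69, 6.75 and 6.69 in the USP48-labelled arrays. The USP48-labelled arrays lay close together and well below the others. The mean fell from 7.57 ± 0.11 to 6.71 ± 0.03 (SD, n = 3 each), 1.81-fold, a log2 difference of −0.86 (standard error 0.09, limma adjusted p = 4.5e-05). CARS2 has 4 other, dimmer probe sets, which did not pass (−0.10, −0.01, 0.01 and 0.25). Those at −0.01 and 0.25 were below the median of every array in both groups. With the mean of all 5 the difference was −0.14 (adjusted p = 0.22).

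RARS2, the mitochondrial enzyme for arginine, stood at 7.78, 7.66 and 7.61 in the empty vector arrays and at 7.10, 6.92 and 7.25 in the USP48-labelled arrays. It fell by 0.59 on the log2 scale (standard error 0.10, limma adjusted p = 0.0013), with no overlap between the groups. Its second brightest probe set fell by 0.46 (adjusted p = 0.0049), the remaining 4 lay between −0.05 and 0.12, below the median of every array, and the mean of all probe sets was at −0.14 (adjusted p = 0.16).

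IARS2 and NARS2, for isoleucine and asparagine, are each measured by a single probe set. IARS2 stood at 9.38, 9.28 and 9.32 in the empty vector arrays and at 9.00, 8.85 and 8.91 in the USP48-labelled arrays, a log2 difference of −0.41 (standard error 0.08, limma adjusted p = 0.0041). NARS2 stood at 7.59, 7.46 and 7.42 in the empty vector arrays and at 7.13, 7.17 and 7.17 in the USP48-labelled arrays, a difference of −0.33 (adjusted p = 0.012), no longer called once empty vector replicate 1 was left out (adjusted p = 0.055). In both genes every USP48-labelled array was below every empty vector array.

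HARS2, the mitochondrial enzyme for histidine, had the largest increase of the mitochondrial enzymes. It stood at 8.16, 8.23 and 8.04 in the empty vector arrays and at 8.66, 8.68 and 8.45 in the USP48-labelled arrays, with no overlap. The log2 difference was 0.45 (1.37-fold, standard error 0.10, limma adjusted p = 0.0049). With control scaling it was 0.16 (adjusted p = 0.31).

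HARS1 and HARS2 start 85 bases apart on opposite strands, and the 84 bases between their RefSeq starts, chr5:140691371-140691454 of GRCh38.p14, are shown in the direction of HARS2 because these sequences precede both genes.
HARS2: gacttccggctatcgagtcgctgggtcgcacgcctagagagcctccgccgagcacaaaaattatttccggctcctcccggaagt
HARS1 stood at 9.10, 9.04 and 8.99 in the empty vector arrays and at 9.28, 9.40 and 9.16 in the USP48-labelled arrays. Both genes were thus higher in every USP48-labelled array, lowest there in replicate 3, and HARS1 did not pass the adjusted test.

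Other synthetase genes with a head-to-head neighbour within 500 bases did not always move with it. KARS1 was at −0.01 while its neighbour TERF2IP, a telomere protein gene, was at 0.41 (limma adjusted p = 0.0033; 0.12 with control scaling, adjusted p = 0.41). RARS2 fell by 0.59 while ORC3, a subunit of the origin recognition complex, was at −0.07 (adjusted p = 0.61). WARS1 rose by 1.15 and WDR25 by 0.55 (adjusted p = 0.024), a call lost with control scaling (adjusted p = 0.23) and on leaving out empty vector replicate 1 or 3 or USP48 replicate 1 or 2 (adjusted p up to 0.099). SARS2 and MRPS12, a mitochondrial ribosomal protein gene, were at 0.02 and −0.06, and FARS2 and LYRM4 both at 0.05. EARS2 was at −0.23, and its neighbour UBFD1 had probe sets called in opposite directions (0.87 and −0.59).

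PARS2, YARS2 and LARS2, for proline, tyrosine and leucine, had smaller increases. PARS2 stood at 5.16, 5.34 and 5.14 in the empty vector arrays and at 5.65, 5.71 and 5.55 in the USP48-labelled arrays (log2 difference 0.42, limma adjusted p = 0.0056; 0.13 with adjusted p = 0.39 with control scaling). YARS2 stood at 7.15, 6.91 and 7.13 in the empty vector arrays and at 7.34, 7.31 and 7.42 in the USP48-labelled arrays (0.29, adjusted p = 0.036; −0.0017 with that scaling). LARS2 stood at 7.99, 7.94 and 7.84 in the empty vector arrays and at 8.24, 8.15 and 8.16 in the USP48-labelled arrays (0.26, adjusted p = 0.041; −0.03 with that scaling). The groups did not overlap in any of these genes. YARS2 and LARS2 each lost the call when any 1 of the 6 arrays was left out (adjusted p up to 0.15 and 0.13) and over all probe sets (adjusted p = 0.053 and 0.062).

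The other mitochondrial genes did not pass. VARS2, for valine, was at −0.32 (95% interval −0.57 to −0.07, limma adjusted p = 0.057) and passed as lower after median centring (adjusted p = 0.042). EARS2, for glutamate, was at −0.23 (−0.43 to −0.02, adjusted p = 0.097), while a dimmer probe set rose by 0.31 (adjusted p = 0.023). AARS2 was at 0.15 (−0.03 to 0.34), MARS2 at 0.13 (−0.12 to 0.38), WARS2 at 0.08 (−0.15 to 0.31), FARS2 at 0.05 (−0.19 to 0.28) and SARS2 at 0.02 (−0.19 to 0.22). VARS2 and EARS2 were below, and AARS2 above, the empty vector arrays in all 3 USP48-labelled arrays.

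Enzymes for the same amino acid in the 2 compartments were compared within each array, which removes any scaling of the array. Of 15 such comparisons both enzymes were called, with values as deposited, in 3, of which IARS1 and IARS2 fell together, CARS1 rose while CARS2 fell, and LARS1 fell while LARS2 rose, the last a call lost with control scaling. The value of CARS1 minus CARS2 was 3.25, 3.55 and 3.66 in the empty vector arrays, while the USP48-labelled arrays were at 5.05, 5.05 and 5.26, a shift of 1.64 on the log2 scale. The groups did not overlap (p = 0.1 by a two-sided exact permutation test, the lowest value possible with 3 arrays against 3, and 0.21 after Benjamini-Hochberg adjustment over the 15).

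Groups did not overlap for 7 pairs, the cysteine pair and 6 others, each at the same exact permutation p of 0.1. For single genes the share without overlap was 42.9% over all genes. The shares of other gene pairs without overlap, or with both genes called, were not computed. These counts thus cannot be called particular to synthetases, and EPRS1 and FARS2 each enter more than a single pair. The shift of the cytosolic relative to the mitochondrial enzyme was 1.06 for WARS1 and WARS2, 0.73 for RARS1 and RARS2, −0.22 for HARS1 and HARS2, −0.51 for LARS1 and LARS2, −0.54 for FARSB and FARS2 and −0.63 for EPRS1 and PARS2. The remaining 8 pairs had shifts between −0.23 for IARS1 and IARS2 and 0.32 for NARS1 and NARS2 and overlapping groups. No pair can pass 0.05 by that test.

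**Figure D3:**
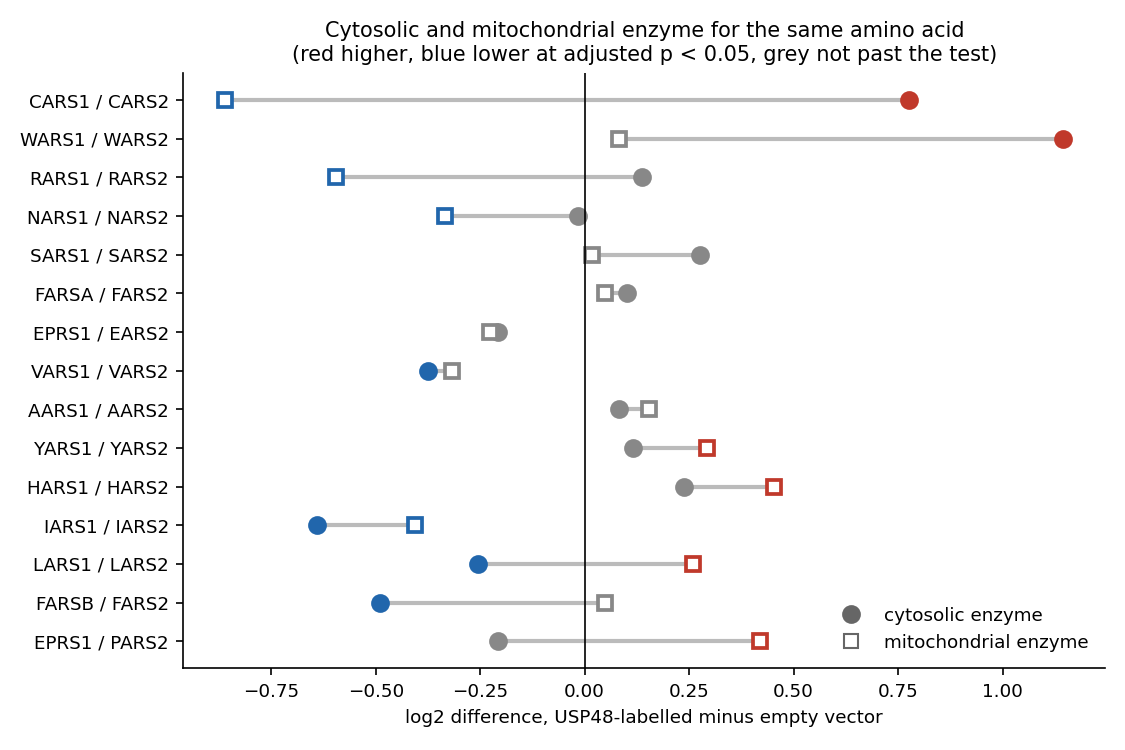
Log2 difference (USP48-labelled minus empty vector, 3 arrays per group) of the cytosolic enzyme (circle) and the mitochondrial enzyme (square) for the same amino acid, ordered by the shift between them; red, blue and grey mark higher, lower and not past the test. The cysteine pair is the widest apart, with CARS1 at 0.78 and CARS2 at −0.86.

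Probe sets of a gene were also compared with each other. Of the 32 genes, 18 had several probe sets and none had probe sets called in opposite directions. In 3 of them, CARS1, TARS1 and WARS1, every probe set rose. In 7 the differences had both signs. Over all 67 probe sets of these genes 21 were called, against 24.3% of all probe sets, and 9 of those were not the brightest of their gene. Of the 35 probe sets that were not the brightest, 11 were below the median of every array in both groups.

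**Figure D4:**
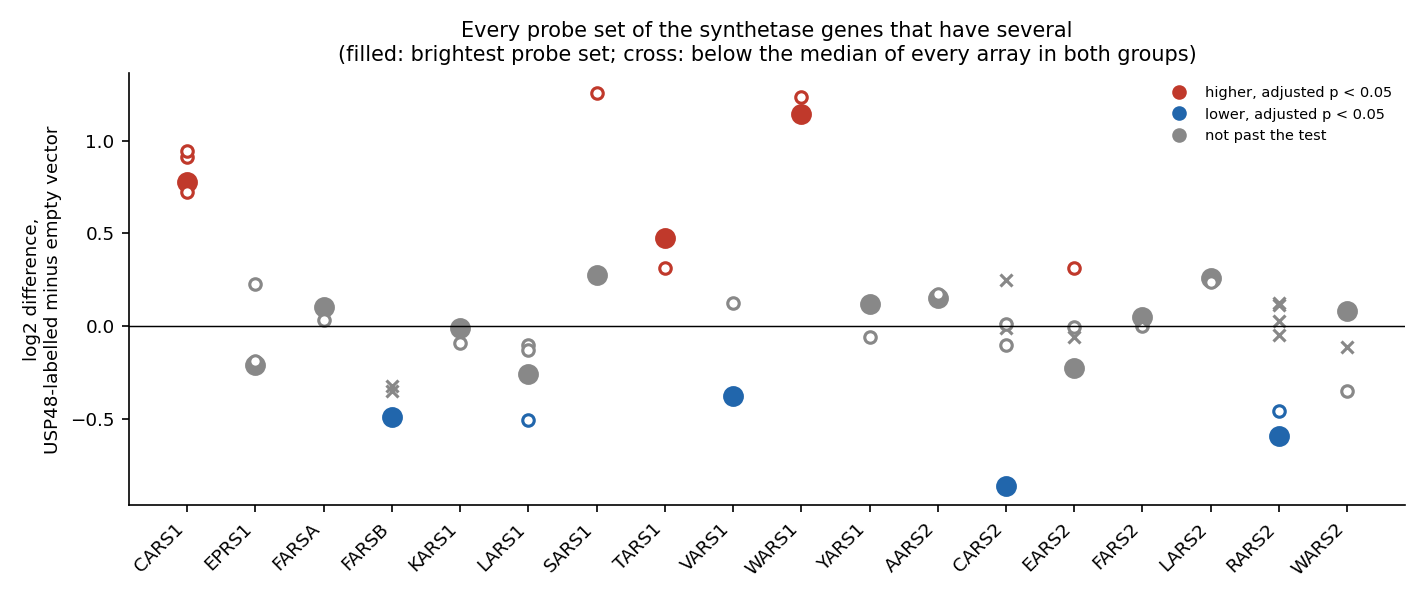
Log2 difference of every probe set of the 18 synthetase genes with several, fitted over all probe sets; filled symbols are the brightest probe set of a gene, open symbols the others, and crosses those below the median of every array in both groups. The CARS1, TARS1 and WARS1 probe sets lie together above 0, while the brightest CARS2 probe set at −0.86 stands apart from its other 4.

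A promoter motif was searched in the synthetase genes because many are known ATF4 targets. The C/EBP-ATF response element was searched as TGATGNAA on both strands, and in the stricter form TGATGCAA, which the first contains. RefSeq promoters were listed for 30 of the 35 members. TGATGCAA was found for 6 of them (20.0%), against 1.08% of 27305 genes, and TGATGNAA for 8 of them against 4.46% of genes. The 6 are AARS1, CARS1, IARS1, NARS1, TARS1 and MARS1, all cytosolic. The windows of the 5 measured genes are shown on the strand of each gene, from 5′ to 3′ with the match in capitals, to set the sequence beside the direction of change. On GRCh38.p14 they lie at chr11:3057407-3057436 for CARS1, chr5:33440956-33440985 for TARS1, chr9:92293692-92293721 for IARS1, chr16:70289675-70289704 for AARS1 and chr18:57621804-57621833 for NARS1, at or near the start of transcription except for AARS1, where the match is at position −187.
CARS1: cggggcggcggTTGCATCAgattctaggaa
TARS1: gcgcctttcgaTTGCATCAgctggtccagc
IARS1: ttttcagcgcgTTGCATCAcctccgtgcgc
AARS1: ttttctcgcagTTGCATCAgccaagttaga
NARS1: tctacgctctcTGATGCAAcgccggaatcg
CARS1, TARS1, IARS1 and AARS1 hold the same 8 bases in the same orientation, and NARS1 holds them on the other strand. Of these genes CARS1 and TARS1 rose (0.78 and 0.47), IARS1 fell (−0.64), and AARS1 and NARS1 did not pass (0.08 and −0.02), so genes with the match were found in each direction. GARS1 and YARS2, at 0.29 each, held a match to TGATGNAA only.

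Regulators of the integrated stress response moved far more than the synthetases. Of 9 measured, 8 rose and none fell, beside 15.7% and 14.1% of all genes, with a median of 0.88 beside 0.05. With control scaling 6 were called higher, beside 4.84% of all genes, and the median was 0.58 beside −0.24 for all genes. ATF4 went from 10.44 ± 0.31 to 11.26 ± 0.11 (SD, n = 3 each; log2 difference 0.82, limma adjusted p = 0.0013). DDIT3, the stress factor CHOP, rose by 2.79, CHAC1, which degrades glutathione, by 2.76, PPP1R15A, a regulatory subunit that directs removal of phosphate from eIF2 alpha, by 2.61 and SESN2, a leucine sensor, by 1.40. The 17 cytosolic synthetase genes had a median of 0.10 in the same arrays.

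Genes of amino acid synthesis were called about as often as all genes. Of 9 measured, 2 rose and 1 fell (33.3% beside 29.8%), with a median of 0.05, the same as over all genes. CTH, which makes cysteine from cystathionine, rose from 6.88 ± 0.19 to 8.49 ± 0.04 (log2 difference 1.60, limma adjusted p = 2.5e-06), and its other probe set rose by 1.58. ASNS, which makes asparagine, rose by 0.51 (adjusted p = 0.0059), but its second probe set was at 0.06 and the call was lost with control scaling (0.22, adjusted p = 0.14). ALDH18A1, of proline synthesis, fell by 0.27 (adjusted p = 0.029), a call lost on leaving out any array except USP48 replicate 3 (adjusted p up to 0.091).

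Synthetase relatives and proofreading genes were called in 2 of 5 cases, beside 29.8% of all genes. SEPSECS, which makes selenocysteine on its transfer RNA, rose from 4.51 ± 0.18 to 5.53 ± 0.10 (log2 difference 1.02, limma adjusted p = 4.7e-05), and 2 of its 4 other probe sets also rose, by 1.07 and 0.80. DTD2, a deacylase that removes wrongly charged residues, fell by 0.51 in its brightest probe set and rose by 0.53 in the other. Of 5 cytosolic elongation and transfer RNA export genes 1 fell, EEF1A2 at −0.66 (adjusted p = 0.00058), with a median of −0.20, and all 5 were called lower with control scaling. Over all genes the median was 0.05, 14.1% fell as deposited and 37.9% were called lower with that scaling.

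Other steps of mitochondrial translation had called genes in both directions, with 25.0%, 27.3% and 33.3% of the 3 lists called beside 29.8% of all genes. Among 4 genes that amidate or formylate charged mitochondrial transfer RNAs, GATC, a subunit of the amidotransferase, fell by 0.62 (limma adjusted p = 0.00098), with its other probe set at 0.04. Among 11 genes of mitochondrial transfer RNA maturation 2 rose and 1 fell. MTO1, which modifies wobble uridines, fell by 0.61 (adjusted p = 0.0035), as did 3 of its 4 other probe sets, NSUN3, a methyltransferase of mitochondrial methionine transfer RNA, rose by 0.58 (adjusted p = 0.00094; its other probe sets were at 0.39 and −0.29) and ELAC2, the 3′ processing nuclease, by 0.26 (adjusted p = 0.040). NSUN3 and ELAC2 did not pass with control scaling (0.29 and −0.04), and ELAC2 was also lost as the average of its probe sets (0.17, adjusted p = 0.21) and on leaving out any array except USP48 replicate 3 (adjusted p up to 0.12).

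Of 9 mitochondrial translation factors 2 rose and 1 fell, with a median of 0.01. The release factor genes MTRF1 and MTRFR rose by 0.72 (limma adjusted p = 0.00014) and 0.31 (adjusted p = 0.013), and the elongation factor gene GFM1 fell by 0.43 (adjusted p = 0.0043). Those calls did not extend to all probe sets. The other MTRF1 probe sets were at −0.05 and −0.08, the other GFM1 probe sets lay between −0.25 and 0.20 without passing, and MTRFR alone of the 3 lost its call with control scaling (0.02, adjusted p = 0.91). TUFM, the mitochondrial elongation factor Tu, was at −0.15 and did not pass (adjusted p = 0.24).

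**Figure D5:**
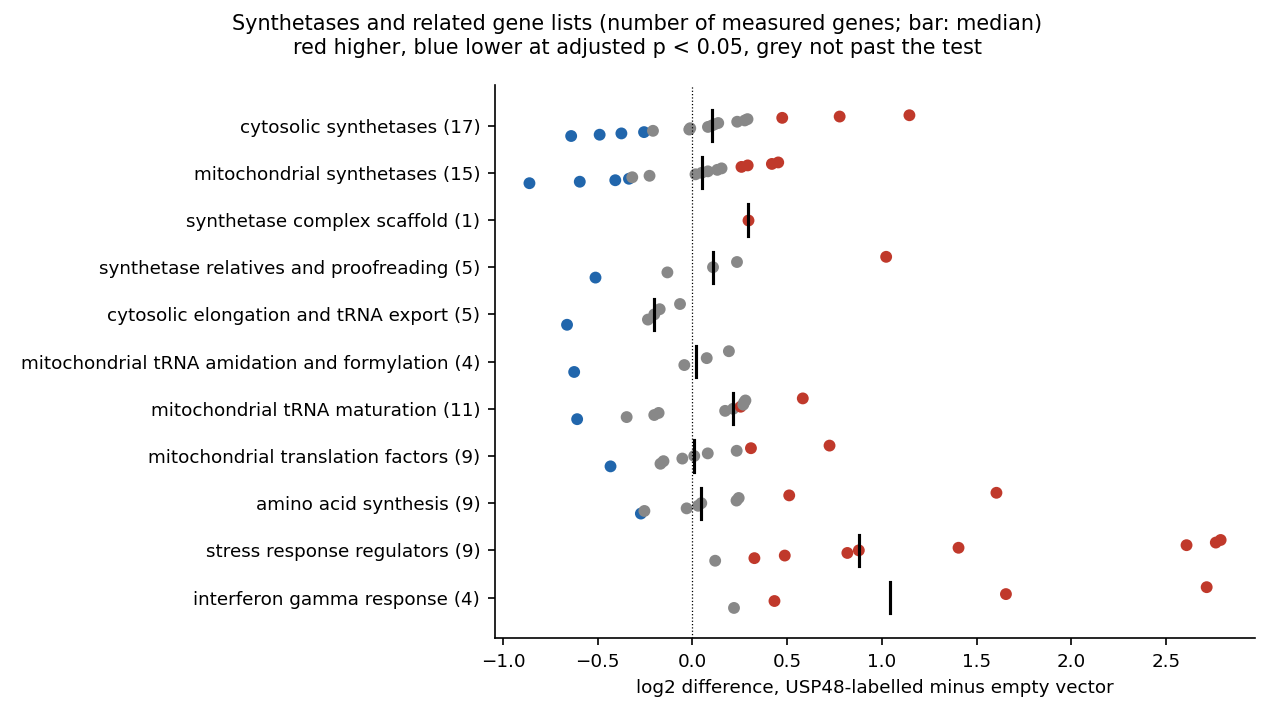
Log2 difference (USP48-labelled minus empty vector) of each measured gene of the synthetase groups and of the related lists, with the number of genes in brackets and a bar at the median; red, blue and grey mark higher, lower and not past the test. The synthetase genes spread on both sides of 0, while the stress response regulators reach 2.79 with a median of 0.88.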

How the data were processed

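Expression was measured on 6 Affymetrix arrays. The authors deposited log2 values made with RMA, 1 per probe set and array, per the submitters' processing notes, and its release is not given in the sources used here. RMA equalises signal between arrays, so a change in total RNA per cell cannot be seen. Of 54675 probe sets, 62 were controls, 41091 named 1 gene, 1801 several and 11721 none in the platform annotation, and 41037 of those with 1 gene matched RefSeq GRCh38.p14 by gene ID. Each gene took its brightest probe set over all 6 arrays, which gave 19775 genes without a filter. Groups, from the titles, were fitted in R 4.3.3 with limma 3.58.1, using lmFit and then eBayes. Tests were two-sided, p-values were adjusted after Benjamini and Hochberg over the 19775 genes, and the threshold was 0.05. Intervals are 95% limits of that fit before adjustment. Depth has no meaning for arrays, and their number limits the precision. Data with the spread of these 19775 genes were simulated, with 200 genes changed. The fit recovered 91% of genes changed by 1 and 47% of those changed by 0.5 on the log2 scale. In the arrays themselves 29.8% of genes were called. The adjustment is stricter when fewer genes change, so these recoveries do not give the sensitivity of the reported test.

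The members and lists were chosen with earlier results of these data known. By the naming rule, values in every array are given for members past the threshold, and from each related list up to 4 called genes with the largest difference are named. Others named, such as further probe sets, neighbours and genes that did not pass, were chosen after their values were seen. Promoter sequences are those of RefSeq. Alternatives were quantile normalization, median centring, scaling on hybridization controls, the mean of all probe sets, single probe sets, a prior that was robust and followed intensity, a replicate block, omission of the dimmest 33.3% of genes, each array left out and a threshold of 0.01. Figures were drawn with matplotlib 3.10.9.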

Additional observations from a re-analysis of the deposited data

How the results depend on the processing

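The share of all genes called was computed only for the values as deposited, control scaling and the mean of probe sets. For the other alternatives the counts below cannot be set beside all genes. The number of cytosolic genes called higher was 3. It was 6 with an intensity trend and robust prior, 6 without the dimmest 33.3% of genes and 5 with the replicate block. Same-numbered arrays deviated together with correlations of 0.00, 0.17 and 0.01. Correlations of differently numbered arrays were not computed, so these values do not settle whether replicates were paired. The main fit did not pair them. The number called lower, 4, was 7 after scaling on the hybridization controls, 2 at an adjusted p under 0.01 and 2 to 5 with an array left out. The median cytosolic difference of 0.10 was 0.071 after quantile normalization, −0.19 after hybridization control scaling, 0.066 with the mean of probe sets and 0.034 to 0.13 with an array left out. The 4 mitochondrial genes called higher were 0 after hybridization control scaling (where 4.84% of all genes were higher and 37.9% lower), 2 at the stricter threshold and 2 with each array left out. Those called lower, 4, were 2 with the mean of probe sets. The mitochondrial median of 0.049 was −0.24 after hybridization control scaling. USP48 was at −0.42 after hybridization control scaling (adjusted p = 0.0049), −0.32 with the mean of probe sets (adjusted p = 0.0071), and −0.63, −0.82 and 0.24 in other probe sets.

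Of the 15 called genes, CARS1, WARS1, IARS1, FARSB and IARS2 kept their call and sign in each gene-level alternative at the threshold of 0.05. IARS1 and IARS2 have a single probe set each, so the mean of probe sets could not change their differences. CARS2 and RARS2, which have several, lost their call with that alternative alone. Scaling lowers every difference by the same amount by construction. The cause of the other changes was not tested. Differences turned negative after hybridization control scaling for AARS1 (−0.21), FARSA (−0.19), GARS1 (−0.0027), HARS1 (−0.057), RARS1 (−0.16), SARS1 (−0.017), YARS1 (−0.18), AARS2 (−0.14), FARS2 (−0.24), LARS2 (−0.035), MARS2 (−0.16), SARS2 (−0.28), WARS2 (−0.21) and YARS2 (−0.0017). With an array left out, genes near 0 changed sign: AARS1 ran from −0.032 to 0.20, KARS1 from −0.038 to 0.020, NARS1 from −0.15 to 0.10, FARS2 from −0.0094 to 0.13 and SARS2 from −0.058 to 0.064. With the mean of probe sets EARS2 was at 0.0067 and WARS2 at −0.13. Single probe sets opposite to the brightest were at 0.23 for EPRS1, 0.13 for VARS1, −0.057 for YARS1, 0.011 and 0.25 for CARS2, 0.31 for EARS2, 0.12, 0.11 and 0.025 for RARS2 and −0.11 and −0.35 for WARS2.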

Other observations

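Some of the genes known as ATF4 targets differed within the empty vector group itself. Empty vector replicate 2 was above replicate 1 by 0.49 for CARS1, 0.46 for AARS1, 0.35 for SARS1, 0.33 for GARS1 and 0.29 for YARS1 and WARS1 on the log2 scale, and by 0.95 for CHAC1, 0.59 for ATF4, 0.46 for TRIB3 and SESN2, 0.36 for DDIT3 and 0.27 for ASNS. These genes, the 2 arrays and the limit of 0.25 below were chosen after the values were seen. The counts that follow are a description, not a test. A gap of at least 0.25 in this direction was present for 6 of 17 cytosolic and 1 of 15 mitochondrial synthetase genes and for 8.63% of all 19775 genes. The 6 cytosolic genes are those named above. For AARS1, GARS1, SARS1 and YARS1 that gap between 2 arrays of the same group was larger than the difference between the groups.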
